A study of Mus musculus with 6 samples.

Results

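H3K9me3 was examined in the regions that lie in the second or a later intron of a gene. The members were the regions on autosomes that the deposited annotation places in an intron other than the first, and there were 8673 of them among 57177 autosomal regions and 58511 regions in all. The marks came from endothelial progenitor cells (EPCs), Sca-1+/CD31+ bone marrow cells that were sorted magnetically and cultured in endothelial growth medium. The 3 groups were EPCs from males (M-EPC), from females with intact ovaries (F-EPC) and from females without ovaries after ovariectomy (OVX-EPC), with 2 libraries in each group. All mice were C57BL/6J and 8 weeks old, and the ovaries had been removed at around 35 days of age. The vials were frozen in duplicate, and nothing in the labels says that the 2 libraries of a group came from separate mice or cultures, so the p-values measure the spread between these libraries, which may be technical. H3K9me3 is not a measure of expression, so the identity of the cells could not be checked from marker genes.

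The files hold no F-EPC reads beyond a point in the chromosome order: replicate 1 ends at chr16:30556738-30557137 and replicate 2 at chr3:110808454-110808853. F-EPC was therefore used only on chromosomes 1 and 10 to 15 and on chromosome 16 up to position 30557137, where 4139 of the 8673 later-intron regions lie. OVX-EPC and M-EPC were compared over all regions. Reads in regions numbered 501237 to 573821 in the M-EPC and OVX-EPC libraries. In the part where both F-EPC libraries hold reads, the autosomal regions held 288353 and 252356 F-EPC reads, against 200296 to 235301 in the other libraries. A later-intron region held a median of 4 to 7 reads in a library there, which sets the precision of everything that follows.

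An intron is the part of a gene that is transcribed and then spliced out of the RNA. Introns after the first are mostly far from the promoter, and in genes of great length they make up most of the gene body. H3K9me3 is the histone mark of constitutive heterochromatin; it is laid down by enzymes such as Suv39h1 and Setdb1, is bound by HP1 proteins, and is best known over repeats, transposon copies and clusters of zinc finger genes.

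These 8 regions carry the results below, and the middle 200 bases of each are shown with every CpG in capitals. Sfi1 and Cdk8 hold the strongest later-intron regions, Gm20750, Chrm3, St6gal1 and Fam163a hold regions with fewer reads in female cells, and Tenm2 and C130026I21Rik hold regions with more. The sequences are the plus strand of GRCm38 from RefSeq, read 5′ to 3′.
Sfi1 intron 8, chr11:3161251-3161450: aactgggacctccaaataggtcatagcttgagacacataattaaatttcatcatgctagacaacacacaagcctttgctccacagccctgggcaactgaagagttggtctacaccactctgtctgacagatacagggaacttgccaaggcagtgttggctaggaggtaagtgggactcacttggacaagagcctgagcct
Cdk8 intron 2, chr5:146261088-146261287: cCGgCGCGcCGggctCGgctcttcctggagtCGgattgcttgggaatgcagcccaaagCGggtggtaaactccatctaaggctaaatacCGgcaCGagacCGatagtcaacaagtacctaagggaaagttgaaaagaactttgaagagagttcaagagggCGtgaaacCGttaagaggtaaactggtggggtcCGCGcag
Gm20750 intron 2, chr3:52919512-52919711: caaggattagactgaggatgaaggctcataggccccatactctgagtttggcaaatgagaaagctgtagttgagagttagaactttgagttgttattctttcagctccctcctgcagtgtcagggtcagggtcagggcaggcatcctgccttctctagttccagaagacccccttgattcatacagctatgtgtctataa
Chrm3 intron 2, chr13:10211073-10211272: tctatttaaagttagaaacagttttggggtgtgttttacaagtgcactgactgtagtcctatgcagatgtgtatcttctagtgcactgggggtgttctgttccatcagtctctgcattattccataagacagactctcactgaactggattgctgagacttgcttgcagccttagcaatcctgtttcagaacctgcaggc
St6gal1 intron 2, chr16:23296824-23297023: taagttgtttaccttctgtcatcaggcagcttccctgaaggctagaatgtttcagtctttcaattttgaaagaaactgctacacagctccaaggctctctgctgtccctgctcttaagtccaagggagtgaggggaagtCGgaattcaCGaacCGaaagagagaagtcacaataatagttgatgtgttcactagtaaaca
Fam163a intron 2, chr1:156085946-156086145: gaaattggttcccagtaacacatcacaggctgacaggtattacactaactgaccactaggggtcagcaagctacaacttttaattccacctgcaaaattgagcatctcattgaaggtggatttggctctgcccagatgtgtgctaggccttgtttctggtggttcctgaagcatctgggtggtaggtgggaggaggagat
Tenm2 intron 5, chr11:36317860-36318059: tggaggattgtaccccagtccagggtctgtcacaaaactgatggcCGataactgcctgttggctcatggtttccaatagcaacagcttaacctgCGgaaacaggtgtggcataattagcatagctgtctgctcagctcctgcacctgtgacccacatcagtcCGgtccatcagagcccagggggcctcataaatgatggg
C130026I21Rik intron 2, chr1:85090682-85090881: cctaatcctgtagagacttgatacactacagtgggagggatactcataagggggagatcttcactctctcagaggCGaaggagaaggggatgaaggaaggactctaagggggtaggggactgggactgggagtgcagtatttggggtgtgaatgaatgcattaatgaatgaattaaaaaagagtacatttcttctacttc

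The strong regions did not share a base composition. The Sfi1 region has no CpG in its 400 bases, while the Cdk8 region has 37 and is 59% G and C. The Gm20750 and Chrm3 regions have no CpG either. St6gal1 has 3, and Fam163a has 3 that lie outside the bases shown. Exact copies were counted for 25-base words of each region over the GRCm38 chromosomes, since the reads were 25 bases long. All sampled words of the Sfi1, Gm20750, Chrm3, St6gal1, Fam163a and Tenm2 regions occur once, against 62.5% of those of Cdk8 and 43.8% of those of C130026I21Rik. Copies in sequence that is not in the assembled chromosomes were not counted.

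Later-intron regions were spread over all 19 autosomes. They made up 12.6% of the regions of chromosome 13 and 18.3% of those of chromosome 10. The host gene, taken from the transcript that the annotation names, was one of 3558 genes, of which 2025 held a single region. Of the 8651 regions whose host has a GENCODE M21 entry, 91.4% lay in a protein-coding gene. Intron 2 held 2216 of the regions (25.6%) and the last intron 1331 (15.3%), with a median position of intron 4 in a gene of 12 introns. The median intron was 30194 bp long and the median host gene 198760 bp. The median distance to the nearest GENCODE transcription start site was 18727 bp, and 155 (1.79%) lay within 1 kb of one. The gene that the deposited table assigns by its start site was another gene than the host for 3897 regions (44.9%), so a later-intron region often carries the name of a neighbour.

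In sequence, later-intron regions resembled first-intron and distal intergenic regions and not promoters. Their median G and C content was 47.2%, against 47.8%, 47.5% and 56.8% in the other classes in that order. The median CpG count per 100 bases was 0.75 in the first 3 classes and 4.25 in promoter regions. Repeats covered a median of 20.2% of a later-intron region, 36% of a distal intergenic region and 5.75% of a promoter region. Under 50% of the sampled 25-base words were unique in 9.24% of later-intron regions and in 15.6% of distal intergenic regions. These are counts over the regions and were not tested.

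Within a library, later-intron regions held fewer reads than promoter regions. Their mean reads per kb were 15.3 and 18.6 (M-EPC), 22.6 and 19.1 (F-EPC) and 16.3 and 17.0 (OVX-EPC). The promoter regions of the same libraries held 31.5 and 32.7, 34.6 and 32.7, and 27.6 and 29.1 reads per kb. The log2 ratio of later-intron to promoter regions was -0.80 ± 0.14 (SD over 6 libraries), and all 6 libraries were below 0 (exact two-sided sign-flip permutation test, p = 0.0312, the smallest that 6 libraries allow). Among regions with 30 reads or more in 2 or more libraries this ratio was -0.24, still below 0 in all 6 libraries. Against first-intron regions the log2 ratio was -0.09 ± 0.04, again below 0 in all 6 libraries (exact sign-flip permutation test, p = 0.0312). With medians over regions the log2 ratio was -0.10, below 0 in 2 libraries and above 0 in none (exact sign-flip permutation p = 0.5). The medians were tied in the other libraries, so that test could not give a smaller p. Against distal intergenic regions it was -0.10 ± 0.08, with M-EPC replicate 1 above 0, and did not pass (exact sign-flip permutation test, p = 0.0938). Among regions with 30 reads or more in 2 or more libraries the sign turned, to 0.12 with all 6 libraries above 0 (exact sign-flip permutation p = 0.0312).

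**Figure D1:**
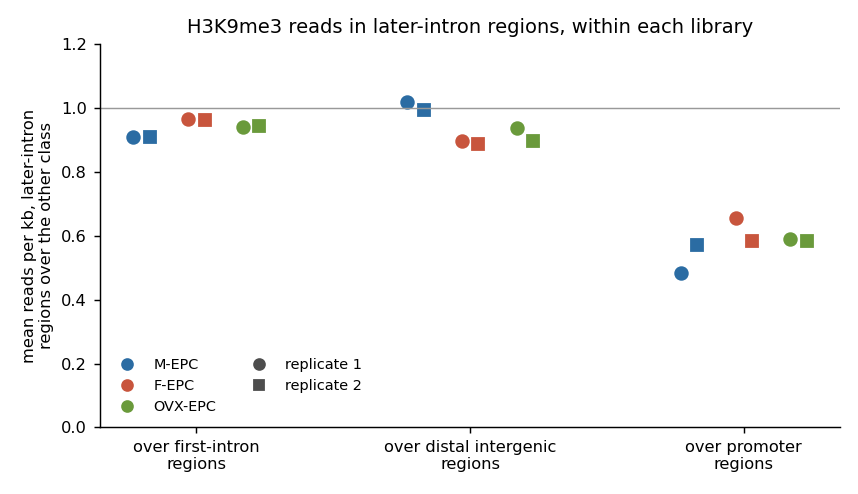
Mean H3K9me3 reads per kb in later-intron regions divided by the mean in another class, for each library, on the autosomal regions where both F-EPC libraries hold reads. Colours mark the groups and symbols the replicates. All 6 libraries lie below 1 against promoter and first-intron regions, and M-EPC lies nearest to 1 against distal intergenic regions.

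The strongest later-intron regions stood far above the rest. Levels are given as RPM, reads per 1000000 autosomal region reads of the library. The median region held 10.8 RPM as the mean of the M-EPC and OVX-EPC libraries, and the strongest held 474. That region is in intron 8 of 31 of Sfi1, a centrosomal gene, at chr11:3161151-3161550. It held 194 and 263 (M-EPC), 329 and 264 (F-EPC) and 259 and 272 reads (OVX-EPC). A second region in intron 3 of Sfi1, at chr11:3181483-3181882, held 94 and 134, 163 and 143, and 144 and 136 reads. Neither region passed the test described below in any comparison. The region in intron 2 of Cdk8, the kinase of the Mediator complex, held 199 and 196 (M-EPC) and 262 and 213 reads (OVX-EPC; log2 fold change 0.25, limma adjusted p = 0.562). Only 62.5% of its sampled 25-base words are unique, and copies outside the assembled chromosomes were not counted, so whether its reads, and its rank, belong to Cdk8 is uncertain.

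Others of the 12 strongest regions lay in genes of very different kinds. They were in Tmem267, Tcte2, Gm20750, Gm10130, the zinc finger gene Zfp180, the neural adhesion gene Chl1, Sirpb1b, Eipr1 and Gm20498. Only 6.25% of the sampled 25-base words are unique at Tcte2, 62.5% at Sirpb1b and 68.75% at Tmem267, Chl1 and Gm20498. At Gm10130 75% are unique, and at Gm20750, Zfp180 and Eipr1 all are. The median over the 12 was 71.9%, against 93.8% over all later-intron regions. Where words are not unique, the gene that the reads came from is uncertain, as at Cdk8. Of the 12, only Gm20750 passed the test of OVX-EPC against M-EPC, and none of the 5 that lie where F-EPC holds reads passed that of F-EPC against M-EPC. The Eipr1 region at chr12:28813990-28814389 passed when both female groups were set against M-EPC (log2 fold change -0.76, adjusted p = 0.00859). The strongest 87 regions, 1% of all, held 7.51 to 9.31% of the later-intron reads of a library. Another region lay within 3 kb of 63.2% of them, against 17.9% of all later-intron regions, and 11 of the 87 lay in a gene named Zfp. The 116 regions in Zfp genes held a mean of 32.8 and 32.2 RPM in the M-EPC and 28.69 and 30.04 RPM in the OVX-EPC libraries, against 14.05 to 14.69 RPM in the other later-intron regions. The Zfp genes were picked out after the strongest regions had been seen, so this is a description.

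The later-intron share of all autosomal region reads overlapped between the groups. The share of the reads outside promoters did not overlap between M-EPC and either female group, while F-EPC and OVX-EPC overlapped. Where both F-EPC libraries hold reads, the share of all autosomal region reads was 12.69 and 13.18% for M-EPC, 13.06 and 12.59% for F-EPC, and 12.98 and 12.64% for OVX-EPC. For OVX-EPC replicate 2 the Wilson 95% interval was 12.5 to 12.8%, and such intervals cover counting error only. F-EPC held 12.8 ± 0.33% and M-EPC 12.9 ± 0.34% (SD, n = 2; exact two-sided permutation test, p = 0.667). Over all autosomes OVX-EPC held 12.6 ± 0.22% and M-EPC 12.7 ± 0.38% (n = 2; exact permutation test, p = 1). OVX-EPC and F-EPC differed by -0.014 percentage points (n = 2; exact permutation test, p = 1). With 2 libraries against 2 the smallest p this test can give is 0.333. The ranges of the groups overlapped in each of these comparisons. With the reads outside promoters as the denominator, F-EPC differed from M-EPC by -1.24 percentage points and OVX-EPC by -0.993, each at the smallest p (n = 2; exact permutation test, p = 0.333), and OVX-EPC differed from F-EPC by 0.264 (n = 2; exact permutation test, p = 0.667).

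Differences at single regions were tested with limma on log2(value + 1), where the value is the deposited normalised signal. A region was tested if it reached 10 in at least 2 libraries, p-values were adjusted over all regions tested in the table by Benjamini-Hochberg, and an adjusted p under 0.05 is a call. The 3 pairwise comparisons and the joint one share libraries, so their values are given side by side and are not independent of each other.

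F-EPC had fewer reads than M-EPC in 20 later-intron regions, and no region had more. These were 20 of the 933 tested (2.14%), against 1.79% of all 8139 regions tested, and 1.62% of all regions were called lower. Of the 4139 later-intron regions in this part of the genome, 933 passed the filter on low values. The log2 fold changes of the 20 ran from -4.19 to -0.999. In each the 2 F-EPC values lay below the 2 M-EPC values, which nearly follows from a call with so few libraries and is no further evidence. Only M-EPC libraries reached the filter at St6gal1, Chrm3, Fam163a, Syn3, Dnah12, Tbc1d8, Irak4, Vps13b, Ifi203-ps and Col23a1. Those regions were tested only because M-EPC was high, which nearly fixes their direction. With edgeR on the recovered reads, which centres the libraries differently, 14 regions were called, 4 higher and 10 lower.

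The region in intron 2 of Chrm3, which encodes the muscarinic acetylcholine receptor M3, differed most. It lies at chr13:10210973-10211372 and held 29 and 22 (M-EPC), 2 and 0 (F-EPC) and 1 and 2 reads (OVX-EPC). The log2 fold change was -4.19 ± 0.74 (SE, adjusted p = 0.00465) for F-EPC and -3.43 ± 0.62 (adjusted p = 0.00401) for OVX-EPC, each against M-EPC. Both F-EPC and OVX-EPC were at a level of a few reads, so the size of the fold depends on the pseudocount. The other 4 later-intron regions of Chrm3 together held 12 and 24 (M-EPC), 17 and 18 (F-EPC) and 17 and 9 reads (OVX-EPC), and none of them reached the filter. The only other region within 25 kb held 5 and 13 (M-EPC), 2 and 3 (F-EPC) and 7 and 6 reads (OVX-EPC) and was not tested.

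The region in intron 2 of St6gal1, the sialyltransferase that caps N-glycans, had the smallest p-value. It lies at chr16:23296724-23297123 and held 31 and 29 (M-EPC), 9 and 7 (F-EPC) and 14 and 18 reads (OVX-EPC). The normalised signal was 6.82 ± 0.52 in F-EPC and 34.1 ± 6.6 in M-EPC (SD, n = 2), with a log2 fold change of -2.15 ± 0.35 (SE, limma adjusted p = 0.00263). OVX-EPC lay between the other groups. Its log2 difference from M-EPC was -0.89 ± 0.32 (adjusted p = 0.201) and from F-EPC 1.23 ± 0.41 (adjusted p = 0.768), and neither passed.

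The region in intron 2 of Fam163a, at chr1:156085846-156086245, was low in both female groups. It held 23 and 20 (M-EPC), 9 and 4 (F-EPC) and 6 and 2 reads (OVX-EPC). The log2 fold change against M-EPC was -2.02 ± 0.41 for F-EPC (adjusted p = 0.0157) and -2.29 ± 0.51 for OVX-EPC (adjusted p = 0.0309). Chrm3 and Fam163a were the 2 regions called in both comparisons, among 627 later-intron regions tested in both.

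In intron 8 of Syn3, which encodes the synaptic vesicle protein synapsin III, the region at chr10:86074060-86074459 held 19 and 18 (M-EPC), 4 and 5 (F-EPC) and 11 and 11 reads (OVX-EPC). The F-EPC difference from M-EPC was -2.17 ± 0.45 (adjusted p = 0.0157) and that of OVX-EPC -0.71 ± 0.36 (adjusted p = 0.331). In intron 2 of the non-coding gene Scpep1os, the region at chr11:88918280-88918679 held more reads, 86 and 96 (M-EPC), 58 and 56 (F-EPC) and 58 and 67 (OVX-EPC). Its log2 fold change in F-EPC was -1.05 ± 0.21 (adjusted p = 0.0157).

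The remaining 15 regions that were lower in F-EPC lay in Parn, Shisal1, Rapgef5, Eipr1, Dnah12, Disp1, Tbc1d8, 2410012E07Rik, Irak4, Vps13b, Npas2, Ifi203-ps, Col23a1, Aox2 and Gm26839. They are named because they complete the count and not by the rule for named regions. Parn trims poly(A) tails, Irak4 is the kinase downstream of Toll-like and interleukin-1 receptors, and Npas2 is a circadian transcription factor. In 9 of the 20 regions the intron was the second, and 6 carried the name of another gene in the deposited table. The median G and C content of the 20 was 47.6%.

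OVX-EPC had fewer reads than M-EPC in 11 later-intron regions, and none had more. These were 11 of 1886 tested (0.583%), against 0.449% of all 16931 regions tested and 0.402% called lower. Of all 8673 later-intron regions, 1886 passed the filter. The log2 fold changes ran from -3.43 to -1.08. The values of the groups did not overlap in any of the 11, which again nearly follows from the call. At Iigp1, Mre11a, Chrm3, Hlcs, Fam163a and Slc44a3 only M-EPC libraries reached the filter, which nearly fixes the direction there. Only 2 of the 11 lie where F-EPC holds reads. With edgeR 16 were called, 3 higher and 13 lower.

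The region in intron 2 of Gm20750, a predicted gene, was both among the strongest and the most clearly lower. It lies at chr3:52919412-52919811 and held 190 and 199 (M-EPC) and 75 and 79 reads (OVX-EPC). The normalised signal was 75.3 ± 0.85 in OVX-EPC and 192 ± 17.2 in M-EPC (SD, n = 2). The log2 fold change was -1.34 ± 0.21 (SE, adjusted p = 0.000829 by limma). The nearest other region, the only one within 25 kb, held 100 and 113 (M-EPC) and 31 and 36 reads (OVX-EPC; log2 fold change -1.65) and was also called.

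In intron 2 of Iigp1, an interferon-inducible GTPase gene on chromosome 18, the region held 36 and 21 (M-EPC) and 3 and 2 reads (OVX-EPC; log2 fold change -3.04 ± 0.50, adjusted p = 0.00147). The 3 other regions within 25 kb of it together held 56 and 70 (M-EPC) and 6 and 14 reads (OVX-EPC), and 1 of the 2 tested was called. In intron 9 of Mre11a, a nuclease of DNA double-strand break repair, the region at chr9:14807977-14808376 held 24 and 29 (M-EPC) and 3 and 2 reads (OVX-EPC; log2 fold change -2.98 ± 0.50, adjusted p = 0.00147). It lies 136 bp from a GENCODE transcription start site, although the annotation calls it intronic.

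In intron 8 of Hlcs, the enzyme that attaches biotin to carboxylases, the region at chr16:94138320-94138719 held 20 and 23 (M-EPC) and 3 and 4 reads (OVX-EPC). Its log2 fold change was -2.33 ± 0.48 (adjusted p = 0.0181). The other 9 later-intron regions of Hlcs together held 91 and 81 (M-EPC) and 77 and 69 reads (OVX-EPC), and none of the 3 tested was called. The median log2 fold change of those 3 was -0.32. No other later-intron region of Chrm3 could be tested. Whether the drop in Hlcs or Chrm3 was confined to 1 region of the gene is therefore not known. At Gm20750 and Iigp1 a neighbouring region was called too. The other regions lower in OVX-EPC were in Efl1, Gm14051, Slc44a3, Ctrc and Hsf2bp.

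No later-intron region passed the test between OVX-EPC and F-EPC. None of the 893 tested was called, against 0.0127% of the 7897 regions tested, which is 1 region. At an unadjusted p under 0.05 limma gave 57 of the 893 (6.38%), beside 6.22% of all regions tested, and edgeR and DESeq2 called none after adjustment. This does not show that the groups were alike.

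**Figure D2:**
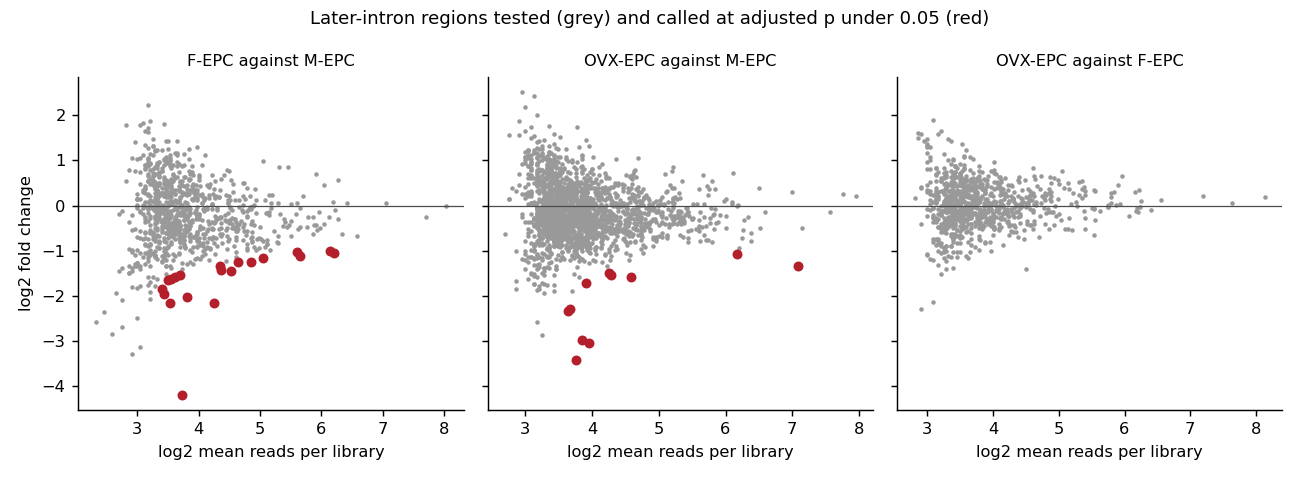
Log2 fold change of each later-intron region tested against the log2 of its mean reads per library, for the 3 pairwise comparisons. Grey points were tested and red points were called, with 20 below 0 in F-EPC against M-EPC, 11 below 0 in OVX-EPC against M-EPC and none in OVX-EPC against F-EPC.

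With both female groups set against M-EPC, 39 later-intron regions were called, 10 higher and 29 lower in the female groups. These were 39 of 1003 tested (3.89%), against 3.78% of the 8695 regions tested. The share of all regions called higher was 1.09% and of those called lower 2.69%, close to the 0.997% and 2.89% of the later-intron regions. With TMM factors taken from the tested regions, the 36 calls split into 21 higher and 15 lower, and edgeR's 36 calls into 13 and 23. That scaling, which was chosen after the data had been seen, moved the median log2 fold change of all tested autosomal regions from -0.16 to 0.01. It moved it from -0.19 to 0.02 for F-EPC against M-EPC, where it left 2 calls, and from -0.17 to -0.01 for OVX-EPC, with 4 calls left there.

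Among the lower regions were St6gal1, Fam163a and Scpep1os from above, and 2 others. In the last intron of Shisal1, the region at chr15:84388015-84388414 held 59 and 66 (M-EPC), 45 and 31 (F-EPC) and 39 and 33 reads (OVX-EPC; log2 fold change -0.97 ± 0.23, adjusted p = 0.00408). In intron 2 of Gm26839, the region at chr12:99571849-99572248 held 26 and 27, 19 and 9, and 6 and 16 reads (log2 fold change -1.36 ± 0.33, adjusted p = 0.00575). The other tested regions within 25 kb had a median log2 fold change of -0.65 over 5 regions at Shisal1, 1 of them called, and of -0.97 over 3 at Gm26839, none of them called.

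The named higher regions outside the stretch described next held few reads in M-EPC. In intron 5 of Tenm2, which encodes the cell adhesion protein teneurin-2, the region at chr11:36317760-36318159 held 2 and 5 (M-EPC), 22 and 14 (F-EPC) and 12 and 11 reads (OVX-EPC). Its log2 fold change was 1.66 ± 0.44 (adjusted p = 0.0133). In intron 14 of Adgrb3, an adhesion G protein-coupled receptor gene, the region at chr1:25413991-25414390 held 6 and 12, 25 and 26, and 16 and 24 reads (1.09 ± 0.32, adjusted p = 0.0303). In intron 3 of Gm28363 the region at chr1:117725454-117725853 held 6 and 6, 18 and 20, and 15 and 17 reads (1.19 ± 0.36, adjusted p = 0.0332). In each of the 3 the M-EPC values lay below all 4 female values, which the rule for named regions requires. At Tenm2 and Gm28363 only female libraries reached the filter. The other later-intron regions of Tenm2 had a median log2 fold change of 0.54 over the 15 tested, none of which was called.

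**Figure D3:**
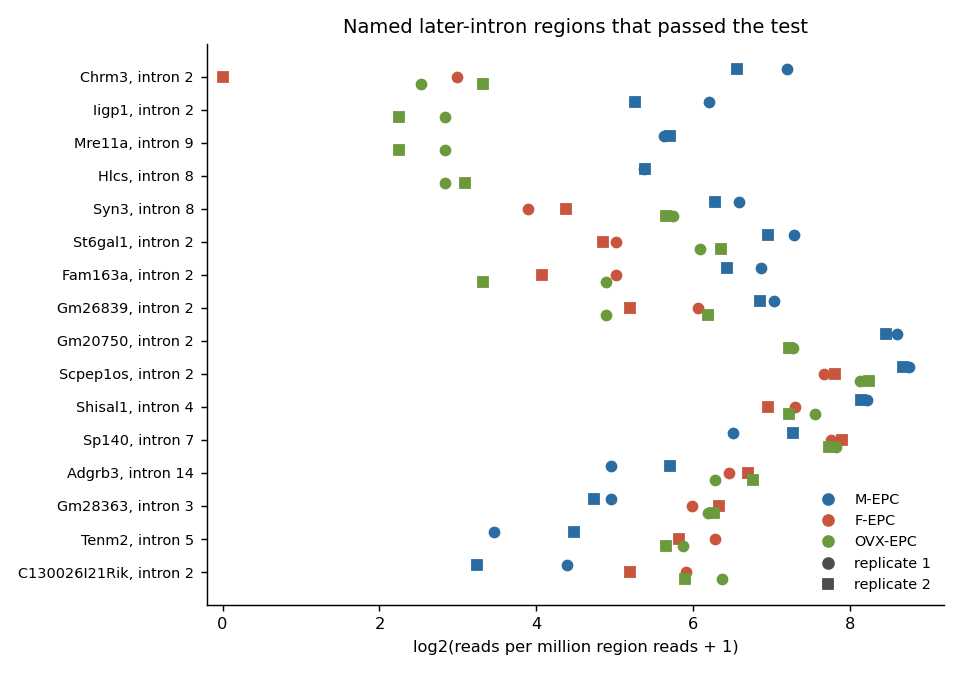
Level in RPM, as log2(RPM + 1), at the later-intron regions named from the tests, with colours for groups and symbols for replicates. M-EPC lies to the right of the female groups in the upper 11 regions and to the left in the lower 5, and F-EPC is not plotted where its libraries hold no reads.

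Of the 10 higher regions, 4 lay close together on chromosome 1. The stretch from 85000945 to 85624833 holds Sp140, a chromatin reader of nuclear bodies, and related and predicted genes, and 25 later-intron regions in 7 host genes. It was picked out after the values had been seen, so what follows is a description. The 25 regions together held 281 and 336 (M-EPC), 569 and 542 (F-EPC) and 408 and 491 reads (OVX-EPC). In RPM, over the reads where F-EPC holds reads, this was 1415 ± 17.7 (M-EPC), 2060.5 ± 123 (F-EPC) and 2075 ± 174 (OVX-EPC; SD, n = 2), or 1.46-fold and 1.47-fold the M-EPC level. No M-EPC value reached a female one.

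The called regions were in intron 7 of Sp140 with 18 and 36 (M-EPC), 62 and 60 (F-EPC) and 47 and 47 reads (OVX-EPC), in intron 3 of Gm16026 with 51 and 53, 109 and 94, and 89 and 85 reads, and 2 in intron 2 of C130026I21Rik. Those 2 held 36 and 41, 87 and 78, and 56 and 70 reads, and 4 and 2, 17 and 9, and 17 and 13 reads. At the latter region only female libraries reached the filter. Of the 15 regions tested in the stretch, 13 had a log2 fold change above 0, where the median over all autosomal regions tested was -0.16. Much of this sequence occurs elsewhere too. A median of 18.8% of the 25-base words of the 25 regions were unique, with a highest value of 50%, against 93.8% over all later-intron regions. Reads here can belong to another copy, so the gene they came from is uncertain, and the 13 regions may not be separate observations. The part of read placement in the difference was not tested.

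**Figure D4:**
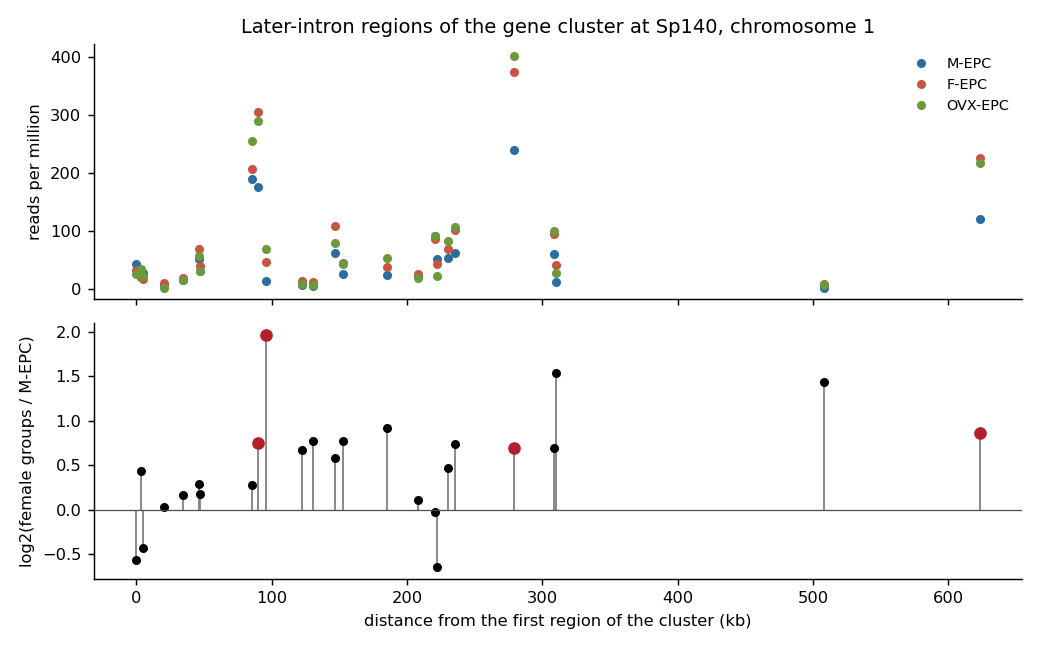
The 25 later-intron regions of the gene cluster at Sp140, by distance in kb from the first. The upper panel gives the mean RPM in each group and the lower panel the log2 ratio of the female groups to M-EPC, with the 4 called regions in red and most regions above 0.

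The later-intron regions as a whole had a median close to that of all autosomal regions. Their median log2 fold change was -0.19 for F-EPC against M-EPC and -0.19 over all autosomal regions tested. It was -0.18 and -0.17 for OVX-EPC against M-EPC, and 0.02 and 0.03 for OVX-EPC against F-EPC. Against the regions outside promoters alone the later-intron median was lower by 0.13 and 0.10 in the first 2 comparisons. The median depended on the level of the region. For F-EPC against M-EPC, without a filter, the 2070 weakest later-intron regions had a median of 0.18 and the strongest 83 a median of -0.43. For OVX-EPC against M-EPC these were 0.03 and -0.22, the latter over 174 regions.

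Later-intron regions in long host genes had higher fold changes against M-EPC than those in short ones, though not in F-EPC among regions with 30 reads or more, as given below. Without a filter, the median log2 fold change of F-EPC against M-EPC was -0.13 in host genes up to 50 kb, -0.19 from 50 to 100 kb, -0.07 from 100 to 300 kb, 0.22 from 300 kb to 1 Mb and 0.48 over 1 Mb. For OVX-EPC against M-EPC it was -0.20, -0.18, -0.11, 0.13 and 0.37. For OVX-EPC against F-EPC it stayed between -0.06 and 0.02 in all 5 classes. By the number of the intron the range was narrower, with medians between 0.01 and 0.13 from intron 2 to beyond intron 10 for F-EPC against M-EPC. By distance to the nearest start site the medians of F-EPC ran from -0.11 at 5000 to 10000 bp to 0.33 over 100 kb. By G and C content they ran from 0.32 up to 42% to -0.07 from 50 to 55%. The classes were set after the data had been seen.

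The gradient with host gene length can be read within each library too, where it needs no scaling between libraries. Reads in later-intron regions of host genes of at least 300 kb were divided by reads in those of host genes under 100 kb. Where both F-EPC libraries hold reads, with 1705 and 1112 regions, the log2 ratio was -0.18 and 0.04 (M-EPC), 0.37 and 0.31 (F-EPC) and 0.32 and 0.28 (OVX-EPC). Both M-EPC values lay below all 4 female values. The difference was 0.41 for F-EPC against M-EPC (n = 2 in each group; exact two-sided permutation test, p = 0.333, the smallest possible). With both female groups against M-EPC it was 0.39 (4 libraries against 2; exact permutation test, p = 0.0667, the smallest possible). F-EPC and OVX-EPC differed by -0.04 (n = 2; exact permutation test, p = 0.667).

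On the remaining autosomal regions, which the comparison with F-EPC did not use, the ratio was -0.40 and -0.25 (M-EPC) and 0.02 and 0.05 (OVX-EPC). Over all autosomes OVX-EPC differed from M-EPC by 0.37 (n = 2; exact permutation test, p = 0.333). First-intron regions showed the same order, with -1.39 and -1.10 (M-EPC), -0.85 and -0.90 (F-EPC) and -0.80 and -0.92 (OVX-EPC), so the order was not particular to later introns. M-EPC replicate 1 lay farthest out, and without it the differences were 0.30 for F-EPC and 0.28 for OVX-EPC.

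Other measures moved with host gene length. Regions in host genes of at least 300 kb had a median G and C content of 46.5% and lay a median of 41363 bp from a start site, against 48% and 9742 bp in host genes under 100 kb. Within 4 equal classes of G and C content the difference of F-EPC from M-EPC was 0.58, 0.35, 0.34 and 0.34, from the poorest to the richest in G and C, and that of OVX-EPC was 0.42, 0.37, 0.35 and 0.31. The level of the region moved with it too. Among regions with 30 reads or more in 2 or more libraries the F-EPC difference was -0.15 and that of OVX-EPC 0.14, while among the weaker regions they were 0.43 and 0.39. The part of the level of a region in the gradient was not tested further, and that of the distance to a start site was not tested.

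**Figure D5:**
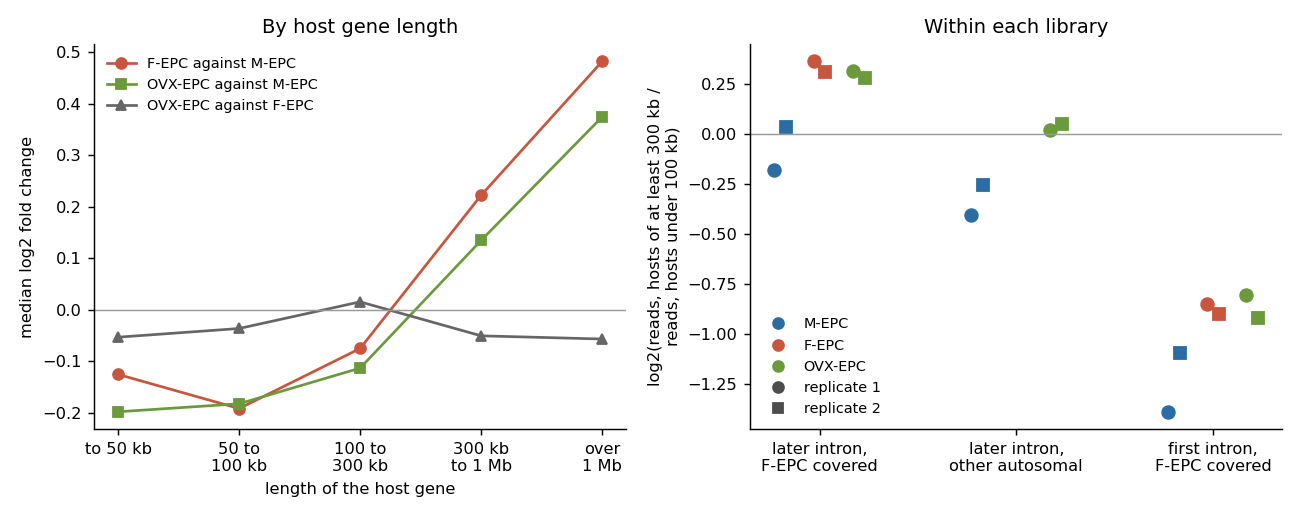
Left, median log2 fold change of later-intron regions by length of the host gene for the 3 pairwise comparisons, without a filter on low values. Right, log2 ratio of reads in host genes of at least 300 kb to reads in host genes under 100 kb in each library, with the M-EPC libraries lowest in all 3 sets of regions.

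The genes with the most later-intron regions were all long. Gpc5, a glypican gene, held 43, Ctnna3, which encodes alpha-T-catenin, 42, and Lrp1b, of the LDL receptor family, and Pcdh15, the protocadherin of hair cell tip links, 39 each. Sntg1 held 35, Macrod2 30, Tenm2 29, Nkain2 28, and Cntnap5a and T-cadherin (Cdh13) 27 each. The 124 genes with at least 10 later-intron regions had a median length of 667 kb. Pcdh15 held 131 and 200 reads (M-EPC), 389 and 307 (F-EPC) and 254 and 264 (OVX-EPC) over its regions. Tenm2 held 134 and 145, 361 and 265, and 215 and 283. In RPM, both OVX-EPC values lay above both M-EPC values in 9 of the 10 genes. The exception was Cdh13, with 679 and 713 (M-EPC) and 685 and 676 (OVX-EPC).

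Among all 124 genes with at least 10 later-intron regions, the OVX-EPC values lay above those of M-EPC, with no overlap, in 54.0% (67 genes), and below in 25 genes. Over all 3558 host genes these shares were 18.2% above and 23.4% below. The median log2 ratio over the 124 was 0.35. Among the 73 of these genes that lie where F-EPC holds reads, both F-EPC values lay above M-EPC in 43 (58.9%) and below in 15, with a median log2 ratio of 0.43. Over all 1517 host genes there, the shares were 18.5% above and 24.6% below. Genes with more regions also hold more reads, and the part of that in the shares was not tested. The regions of 1 gene share the gene and were summed, so each gene counts once.

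The 6 gene lists were chosen with earlier results of these data in view and were read against the host genes. The list of neuronal genes was made up of long genes, so a large number of regions follows from that choice. Neuronal adhesion, synapse and ion channel genes of great length held 860 later-intron regions, in 70 of 79 genes. Of their tested regions, 0 of 64 were called for F-EPC against M-EPC, 0 of 93 for OVX-EPC against M-EPC, and 0 of 89 for OVX-EPC against F-EPC. Over all regions tested 1.79%, 0.449% and 0.0127% were called. At an unadjusted p under 0.05 the list had 14, 14 and 3, with limma, where 22.8%, 16.1% and 6.22% of all regions tested passed, so the list did not stand out in these counts. Their median log2 fold change among the tested regions was 0.50 in F-EPC and 0.22 in OVX-EPC against M-EPC, beside -0.19 and -0.17 over all autosomal regions tested. Without a filter the list had medians of 0.50 and 0.41. All later-intron regions in host genes from 300 kb to 1 Mb had 0.22 and 0.13, and those over 1 Mb 0.48 and 0.37. With both female groups against M-EPC, 2 of 86 tested regions of the list were called, both higher. Over all regions tested there 3.78% were called and 1.09% were called higher, so 2 calls are too few to set the list apart. The strongest of the list, in intron 3 of Sorcs2, held 32 and 32 (M-EPC) and 29 and 38 reads (OVX-EPC). The strongest in Cdh13, in intron 5, held 25 and 39 and then 25 and 41.

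Endothelial and angiogenic genes held 18 later-intron regions in 10 of 50 genes. In intron 4 of Notch1 the region held 26 and 29 (M-EPC) and 22 and 26 reads (OVX-EPC; log2 fold change -0.20, adjusted p = 0.772). In intron 13 of Pecam1, the gene of the CD31 antigen used for sorting, the region held 14 and 11 (M-EPC), 9 and 7 (F-EPC) and 8 and 9 reads (OVX-EPC; F-EPC log2 fold change -0.94, adjusted p = 0.201). Vwf and Smad6 held 9 to 17 reads in a library. Inflammatory cytokine, chemokine and receptor genes held 10 regions in 7 of 50 genes, none of which reached the filter. The strongest, in intron 8 of Tnfrsf1b, a receptor for tumour necrosis factor, held 12 and 9 (M-EPC) and 8 and 8 reads (OVX-EPC).

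Genes that write, erase or read H3K9 methylation held 8 regions in 5 of 32 genes. In intron 2 of Cdyl2, a chromodomain gene, the region held 26 and 46 (M-EPC) and 17 and 18 reads (OVX-EPC; log2 fold change -0.95, adjusted p = 0.165). In intron 3 of Setdb2, a SET domain gene, it held 18 and 14, 14 and 12, and 13 and 15 reads. Macrophage, lymphocyte and progenitor markers held 8 regions in 3 of 19 genes, with the 4 strongest in Runx1 at 2 to 13 reads. Estrogen and androgen response genes held 22 regions in 6 of 16 genes, and the strongest, in intron 6 of Esrrg, held 8 and 13, 10 and 13, and 12 and 10 reads. Few regions of these 5 lists were tested. Numbers follow for F-EPC and OVX-EPC against M-EPC, OVX-EPC against F-EPC, and both female groups. They were 1, 4, 0 and 2 (endothelial), 1, 2, 1 and 1 (H3K9), 0, 1, 0 and 0 (markers) and 1, 3, 2 and 2 (hormone response). None was called, which says little with so few tested. At an unadjusted p under 0.05 limma gave the 1 endothelial region tested for F-EPC. It also gave 1 of 2 H3K9 regions for OVX-EPC against M-EPC and 1 of 2 hormone response regions for OVX-EPC against F-EPC. Of all regions tested in these comparisons, 22.8%, 16.1% and 6.22% passed.

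The number of calls changed with the libraries and the test. Without M-EPC replicate 1 no later-intron region was called in F-EPC or OVX-EPC against M-EPC, and 2 were called with both female groups, while DESeq2 called 1 region in each of these 3 comparisons. Without M-EPC replicate 2, 18 regions were called for F-EPC, 9 of them higher, and none for OVX-EPC. Without either OVX-EPC library 3 were called for OVX-EPC. The fold changes moved less than the calls: without M-EPC replicate 1 that of Gm20750 in OVX-EPC was -1.24 and that of Scpep1os in F-EPC -0.98. Leaving out either M-EPC library leaves the same number of libraries. For F-EPC and for both female groups the counts then differed, so they depended on which M-EPC library was left out. For OVX-EPC the counts were the same, so fewer libraries and the loss of a given M-EPC library cannot be told apart there.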

How the data were processed

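H3K9me3 CUT&Tag was measured in 6 libraries. Per the labels and the study's methods, the authors sequenced 25-base read pairs, aligned them to mm10 (Bowtie2 in the methods, BWA in the submitters' processing notes), removed duplicates and low mapping qualities, called peaks with MACS2 and annotated regions with ChIPseeker. The deposited signal is whole reads divided by 1 median-of-ratios factor per library and table: 100% of values came out whole within 0.001 reads, so the reads were recovered. The authors' own columns of means, fold changes and p-values were not used. The members and gene lists were chosen with earlier results of these data known.

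Tests used limma 3.58.1 on log2(signal + 1), adjusted over all regions tested. edgeR 4.0.16 and DESeq2 1.42.0 on the recovered reads, other scalings, filters and pseudocounts and left-out libraries were alternatives. Library values were compared by exact permutation tests. Named regions are the 5 smallest p-values per direction and comparison with no overlap, the 12 strongest members, the 10 genes with most members and up to 4 examples per gene list. Sequence and copies came from GRCm38 (RefSeq), lengths and start sites from GENCODE M21.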

Additional observations from a re-analysis of the deposited data

Results flagged for a closer look

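F-EPC replicate 2 holds reads in later-intron regions that no comparison uses, because replicate 1 has none there. Past the last region with reads of replicate 1, replicate 2 held 18540 reads over 2133 later-intron regions, and 49 of these regions had none. With a single library, no difference from another group was tested there. The groups of 2 libraries are too small for a test of single outlying samples, and no later-intron region was called between OVX-EPC and F-EPC.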

How the results depend on the processing

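Leaving out 1 library gave 0 to 18 later-intron calls for F-EPC and 0 to 3 for OVX-EPC (each against M-EPC), 0 for OVX-EPC against F-EPC, and 2 to 30 with both female groups. A group left with 1 library was assumed to vary like the others. For F-EPC against M-EPC, 31 regions were called with a pseudocount of 5, 31 without a filter, 42 with the G and C trend removed, 42 with that and the replicate block, 1 with DESeq2 and 2 with TMM factors from the tested regions. For OVX-EPC against M-EPC, these were 7 with a pseudocount of 0.1, 1 with DESeq2, 18 with the G and C trend removed and the replicate block, 4 with TMM factors from the tested regions and 2 on the regions where F-EPC holds reads. With both female groups, 22 were called at a minimum of 30, 1 with DESeq2 and 21 with the replicate block. The replicate numbers do not pair the libraries by any label, and differences between replicates correlated at -0.08 to -0.02 between groups. The block changed no other count by more than 1.5 times. The named differences were picked in these same libraries for small p-values and groups without overlap, so their sign was likely to hold. The 20 named differences kept their sign in all 307 values that the alternatives gave, and 65 of these no longer passed. Not every region passed the filter in every alternative: 11 of the 20 gave a value without either M-EPC library, of which 1 passed without replicate 1 and 8 without replicate 2, and 5 gave one at a minimum of 30.

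The later-intron median minus that of the other regions was 0.0009, -0.01 and -0.01 for the 3 pairs. It was -0.0384, 0.0285 and 0.0458 at a minimum of 30, -0.0851 and -0.0529 with the G and C trend removed for the first 2, and -0.13 and -0.10 against regions outside promoters. Without 1 library it ran from -0.0724 to 0.0221, from -0.0116 to 0.0426 and from -0.0415 to 0.0233. The share difference ran from -0.35 to 0.13, from -0.38 to 0.16 and from -0.25 to 0.22 percentage points without 1 library. With reads outside promoters as denominator it was -1.24, -0.993 and, turned, 0.264, and at a minimum of 30 it was -0.346, -0.0886 and, turned, 0.006. The log2 ratio to first-intron regions was -0.10 with medians, -0.0595 at a minimum of 30 and -0.12 on all autosomes, and no longer passed. With medians, ties between the classes did not allow it to pass. Over promoters the ratio was -0.24 at a minimum of 30 and -0.77 on all autosomes. On all autosomes 4 libraries cannot pass. Over distal intergenic regions the ratio was 0.12 at a minimum of 30. The host length difference turned at a minimum of 30, to -0.15 for F-EPC and -0.18 for both female groups, and for OVX-EPC against F-EPC to 0.0126 in the third class of G and C content. Without 1 library it ran from 0.30 to 0.52, 0.28 to 0.46, -0.07 to -0.01 and 0.28 to 0.50. The cause was not tested in these cases. Depth limits every value: most later-intron regions held under 10 reads in a library and were not tested.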

Other observations

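Later-intron reads were 11.7% of the autosomal reads of F-EPC replicate 2 on the regions between the ends of the F-EPC libraries. On the part where both libraries hold reads, the same library gave 12.6%. No replicate check of this value was possible.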
